A study of Mus musculus with 12 samples.

Results

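Secondary neurospheres grown from mouse pluripotent lines were set against neurospheres from the embryonic ganglionic eminence (GE), using 3 of the 12 Affymetrix arrays of the series. The secondary neurospheres were chosen by their labels and were on 2 arrays, 1 from the induced pluripotent stem (iPS) line 38C2 and 1 from the embryonic stem (ES) line EB3. The GE neurospheres, from embryonic day 14, were on 1 array. All 3 cultures were grown in the same medium, named MHM, and no transgene is given in the labels for any of them. The GE tissue came from the strain C57BL/6, the only strain named, from which the ES and iPS cells are excepted. Strain, line and donor sex therefore cannot be told apart from the difference between the groups. Each line was on 1 secondary array, and the labels do not say that any array came from a repeat culture. The p-values rest on the spread between the 2 arrays of each pair in the series. In 3 of the paired groups (pluripotent cells, primary and secondary neurospheres) 1 array is from the iPS and 1 from the ES line. The spread of these pairs thus includes line differences. In the other pairs, of fibroblast-derived neurospheres, the 2 arrays differed in added culture factors. These were EGF plus cAMP against LIF in the adult-derived pair, and cAMP added to LIF in the embryonic-derived pair. Their spread thus includes culture differences. The other 9 arrays, in 5 groups, entered the fit only to estimate the spread.

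Neurospheres are floating aggregates in which neural stem and progenitor cells divide in response to growth factors, together with some of their neuronal and glial progeny. The ganglionic eminence is a germinal zone of the ventral forebrain, from which striatal neurons, cortical interneurons and oligodendrocyte progenitors arise. Neural cells made from pluripotent cells take their position along the head-to-tail and back-to-belly axes from signals in the culture, such as retinoic acid, Wnt and Sonic hedgehog, and transcription factors of the Hox, engrailed, Iroquois, Foxa and Nkx families record that position. Dissociated and replated primary neurospheres give secondary ones, and in many protocols later passages yield more glia.

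Values are deposited signals of 1 probe set per gene, scaled so that the 2%-trimmed mean was 100 on every array, and paired values of the secondary neurospheres stand with the iPS-derived array before the ES-derived one. A signal of 20 was the level needed on at least 1 of the 12 arrays for a gene to be tested, and lower signals are close to the noise of the method. Differences are secondary minus GE on the scale of log2(signal + 5), with the standard error (SE) of the fit, and this scale understates changes of dim genes. A gene is called if limma's Benjamini-Hochberg adjusted p was under 0.05 and both secondary arrays lay on the same side of the GE array. Signals reached 20 in 46.9% and 49.1% of the probe sets on the secondary arrays, against 45.7% on the GE array. The 3′/5′ ratio of Actb, a control for RNA quality, was 1.28 and 1.28 on the secondary arrays, against 1.52 on the GE array. For Gapdh it was 0.709 and 0.726 on the secondary arrays, against 0.897 on the GE array. The GE ratio was the highest of the 12 arrays for both controls. Its part in the differences below was not tested.

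Of 13650 genes tested, 531 (3.89%) were called, 327 (2.4%) of them higher and 204 (1.49%) lower in the secondary neurospheres. The genes with the largest positive differences included Sonic hedgehog, Foxa1, Foxa2, Nkx6-1 and Hoxb3, which are regulators of ventral and posterior neural identity. Those with the largest negative differences included Xist, Agt, Gfap, Enpp6 and Ntsr2, among them genes of astrocytes and of the oligodendrocyte lineage. Both secondary arrays lay above GE for 5540 genes and below it for 5137, and they lay on opposite sides for 2973. The median absolute difference of the secondary mean from GE was 0.447 over all genes. Between the 2 secondary arrays it was 0.316, a difference of single arrays and so not a like measure. Among called genes the median absolute difference from GE was 2.51, and in 346 of them both secondary arrays were at least 2 away from GE. Across genes, the secondary arrays correlated with each other at 0.95 and with the GE array at 0.893 and 0.879.

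The number of calls rests on how the spread was estimated. A fit of the 3 arrays alone called 0 genes with limma, with 2397 at an unadjusted p under 0.05, and a fit with the primary neurospheres added (5 arrays) called 10. These 10 were Shh, Foxa1, Foxa2, Hoxb3, Sulf1, Penk, Grb10, Corin (chosen here after its values were seen), Xist and Agt. Leaving out the iPS-derived or the ES-derived secondary array left 230 and 216 calls. Leaving out replicate 3 or 4 of the neurospheres from embryonic fibroblasts, whose arrays differed least from each other (median absolute difference 0.206, against 0.294 to 0.449 in the other pairs), left 223 and 225. A fit with the line as a replicate block, since the iPS and ES lines run through 3 groups, called 771, and its counts stand beside those below that it moved by over 1.5 times. Of the 105 named genes that were called, 39 kept the call whichever of 10 arrays was left out. With all arrays scaled to the same median signal, 47.7% of the calls were higher in the secondary neurospheres, against 61.6% as deposited.

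**Figure D1:**
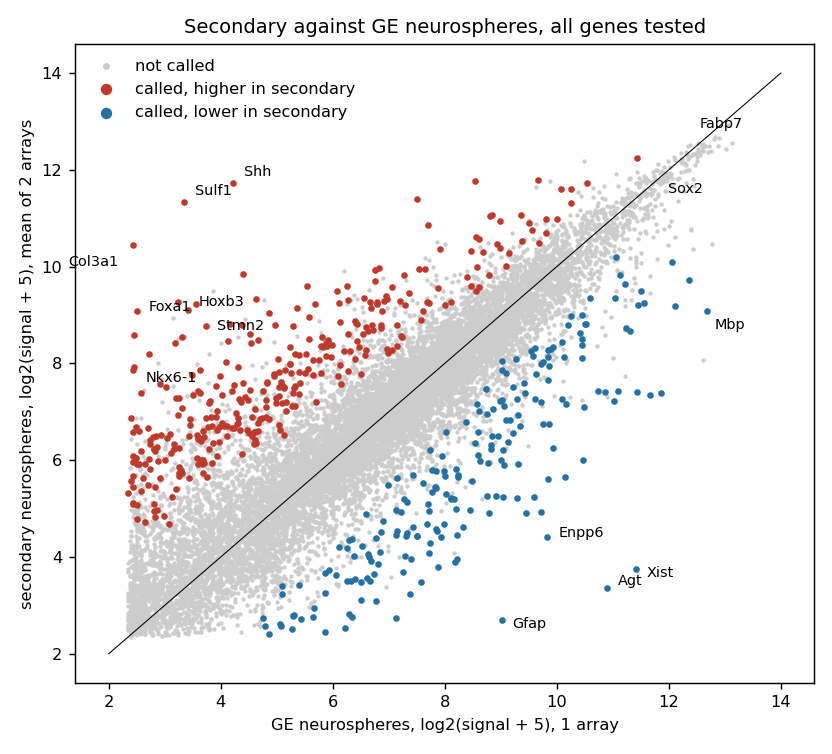
Mean log2(signal + 5) of the 2 secondary arrays (vertical) against the GE array (horizontal) for the 13650 genes tested, with the line of equality. The 327 genes called higher in the secondary neurospheres are red and the 204 called lower are blue, with Shh, Sulf1, Foxa1 and Col3a1 far above the line and Xist, Agt and Gfap far below it.

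Markers of neural progenitors were detected in both cultures. Of 8 markers of neurosphere cells 0 were called, against 3.89% over all genes, and all 8 reached 20 on each of the 3 arrays. The SE ran from 0.17 for Vim to 0.95 for Sox2, so the absence of calls does not show equal levels. Fabp7, a fatty acid-binding protein of radial glia, had signals of 6338 and 6348 in the secondary neurospheres, against 7197 in the GE neurospheres. The transcription factor Sox2, which keeps neural progenitors undifferentiated, had 2628 and 2409 in the secondary neurospheres and 3703 in the GE neurospheres. Vimentin (Vim) had 5687 and 6079 in the secondary neurospheres and 5290.1 in the GE neurospheres. Nestin (Nes), the classical filament of neural stem cells, had 243 and 203 in the secondary neurospheres, against 133 in the GE neurospheres. The differences lay between -0.88 (Slc1a3, a glial glutamate transporter) and 0.92 (Msi1, an RNA-binding protein) over the 8 markers. Some dimmer probe sets of these genes had the opposite sign. They were 2 of 5 others for Slc1a3 (1.06 and 1.90) and the 1 other for Msi1 (-0.417). The receptor for epidermal growth factor, Egfr, was not called either, at 734 and 674 in the secondary neurospheres, against 1034 in the GE neurospheres. Of 27 genes of a wider neural stem cell list 26 were tested, 2 were called higher and 4 lower (23.1%, against 3.89% over all genes). The median difference was 0.041. The higher ones, Hmga2 and Cd24a, and 3 of the lower ones, Nr2e1, Lhx2 and Pax6, are given below. The fourth, the orphan receptor Gpr37l1, had 11.4 and 9.8 in the secondary neurospheres, against 164 in the GE neurospheres (-3.44 ± 0.55). Without the iPS-derived array 3 genes of this list were called, and without the ES-derived array 2.

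The label of the GE array was less evident in its own markers. Of 7 markers of the ganglionic eminence, 2 were among the genes tested, the homeobox genes Dlx1 and Dlx2. Both were under 20 on the GE array, at 0.4 and 15.5. Dlx1 was called higher in the secondary neurospheres, at 38.9 and 54.5 (3.24 ± 0.64, adjusted p = 0.0322). Dlx2 had 52.4 and 41.8 in the secondary neurospheres and was not called. The other forebrain genes are described below with the patterning genes.

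Genes of the cell division cycle were higher in the secondary neurospheres, and mitosis had the largest share of called members among the 35 gene lists examined. Of 28 genes of mitosis, 27 were tested and 24 were called higher (88.9%, against 2.4% over all genes). The median difference was 2.41, against 0.025 over all genes. All 27 lay above GE on both secondary arrays. The 3 that were not called, named after their values were seen, were Foxm1 (0.93), Cenpe (1.45) and Ccnf (1.89). Of 28 genes of DNA replication, 27 were tested and 17 were called higher (63.0%), with a median of 1.85. Again all 27 lay above GE on both secondary arrays. No gene of either list was called lower.

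Mki67, which encodes the proliferation marker Ki-67, had signals of 659 and 639.6 in the secondary neurospheres, against 89.6 in the GE neurospheres (2.79 ± 0.37, adjusted p = 0.0104). Topoisomerase IIα (Top2a), which untangles chromosomes, had 1016 and 807 in the secondary neurospheres, against 149 in the GE neurospheres (2.57 ± 0.25, adjusted p = 0.00361). Both secondary arrays were several times above the GE array in each case, and closer to each other than to it. Bub1, a kinase of the spindle checkpoint, differed by 3.08 ± 0.41, with 322 and 223 in the secondary neurospheres, against 27.3 in the GE neurospheres. Ube2c, a ubiquitin-conjugating enzyme of the anaphase-promoting complex, had 1004 and 678 in the secondary neurospheres, against 103 in the GE neurospheres (2.94 ± 0.36). The polo-like kinase Plk1 had 299 and 171 in the secondary neurospheres, against 30.4 in the GE neurospheres (2.71 ± 0.40), and the cyclin Ccnb2 had 278 and 219 in the secondary neurospheres, against 32.6 in the GE neurospheres (2.74 ± 0.44). Among genes of DNA synthesis, thymidine kinase (Tk1) showed the largest difference of its list, 4.02 ± 0.36, with 165 and 137 in the secondary neurospheres, against 4.6 in the GE neurospheres (adjusted p = 0.00269). Cdc6, which loads the replicative helicase onto origins, had 103 and 74.6 in the secondary neurospheres, against 3.5 in the GE neurospheres (3.45 ± 0.52). The helicase subunit Mcm5 had 956 and 544 in the secondary neurospheres, against 62.7 in the GE neurospheres (3.42 ± 0.37, adjusted p = 0.00507). Rrm2, a subunit of the ribonucleotide reductase that makes deoxynucleotides, had 1819 and 951 in the secondary neurospheres, against 236 in the GE neurospheres (2.46 ± 0.37). In all of these the iPS-derived array was the higher of the pair and the ES-derived array still lay above GE. Uhrf1, which brings the maintenance DNA methyltransferase to replicated DNA, followed them with 456 and 279 in the secondary neurospheres, against 42.8 in the GE neurospheres (2.92 ± 0.40). It was the only called gene of the 30 tested genes of DNA methylation, Polycomb and BAF complexes (3.33%, against 3.89% over all genes).

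Of 22 tested G1 cyclins, cyclin-dependent kinase inhibitors and p53 targets, which act at entry into the cycle, 1 was called in each direction (9.09%, against 3.89% over all genes). The count was 0 without the iPS-derived array or without replicate 3 or 4 of the embryonic fibroblast-derived neurospheres and 1 without the ES-derived array, and 2 were called higher with the replicate block. Cyclin D2 (Ccnd2) was higher in the secondary neurospheres, with 2787 and 3462 in the secondary neurospheres, against 1078 in the GE neurospheres (1.52 ± 0.28, adjusted p = 0.0254). The inhibitor Cdkn2b (p15) was lower, with 55.2 and 62.6 in the secondary neurospheres, against 511 in the GE neurospheres (-3.02 ± 0.57, adjusted p = 0.0267). The mean log2 level of the 27 mitosis genes was 8.35 and 7.84 in the secondary neurospheres, against 5.77 in the GE neurospheres, and the other 9 arrays lay between 6.77 and 9.74. GE was thus the lowest of the 12 arrays, below the adult fibroblasts. With the iPS-derived array left out, 9 mitosis and 6 replication genes were still called, and with the ES-derived array left out 18 and 12. Without replicate 3 or 4 of the embryonic fibroblast-derived neurospheres 13 and 11 were called. The fit of 5 arrays called 0 of either list.

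**Figure D2:**
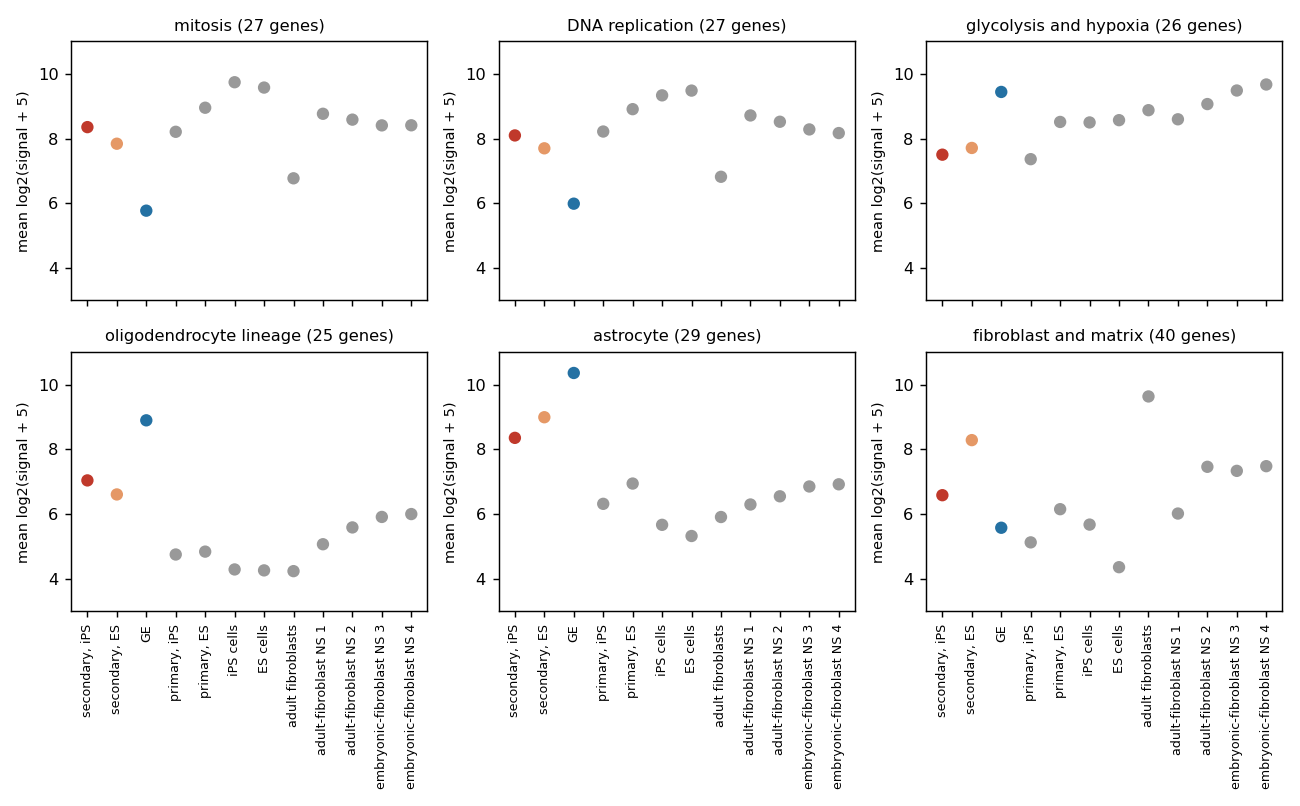
Mean log2(signal + 5) of the tested genes of 6 lists on each of the 12 arrays, with the iPS-derived (red) and ES-derived (orange) secondary neurospheres, the GE neurospheres (blue) and the other arrays (grey; NS, neurospheres). For mitosis the secondary arrays lie at 8.35 and 7.84 and GE at 5.77, the lowest of the 12, and for the oligodendrocyte lineage and astrocyte lists GE is the highest.

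The promoters of called members are shown for the elements that cell cycle genes are known to carry. Promoter windows from RefSeq (GRCm38.p6), running from 250 bases before to 50 bases after a gene's start, were matched by symbol for 20 of the 24 called mitosis genes, as 21 windows. The cell cycle homology region was searched as TTTGAA and the CCAAT box as CCAAT, each on both strands. TTTGAA was in 18 of the 21 windows (85.7%), against 17.9% of all 32851 windows. CCAAT was in 17 (81.0%), against 37.4% of all windows, and both motifs were in 16 (76.2%), against 6.95%. Over the whole mitosis list TTTGAA was in 19 of 24 windows (79.2%), CCAAT in 20 (83.3%) and both in 17 (70.8%). Ube2c (plus strand, chr2:164769679-164769978) and Mki67 (minus strand, chr7:135716330-135716629) are printed 5′ to 3′ with both motifs in capitals, where touching matches run together.
Ube2c: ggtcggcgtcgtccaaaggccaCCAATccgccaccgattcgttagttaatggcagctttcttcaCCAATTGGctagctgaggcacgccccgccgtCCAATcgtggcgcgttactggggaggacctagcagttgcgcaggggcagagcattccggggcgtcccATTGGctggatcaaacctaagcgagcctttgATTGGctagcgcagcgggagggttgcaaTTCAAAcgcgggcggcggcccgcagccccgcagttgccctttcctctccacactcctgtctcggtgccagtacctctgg
Mki67: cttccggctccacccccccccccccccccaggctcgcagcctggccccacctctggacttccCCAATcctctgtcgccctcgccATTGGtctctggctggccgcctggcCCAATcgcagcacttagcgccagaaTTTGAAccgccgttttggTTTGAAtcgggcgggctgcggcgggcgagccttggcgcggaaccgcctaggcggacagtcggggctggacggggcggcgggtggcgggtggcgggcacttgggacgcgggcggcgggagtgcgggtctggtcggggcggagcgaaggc

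For the DNA replication genes the E2F element was searched as TTTCCCGC, TTTGGCGC, TTTCGCGC and TTTGCCGC on both strands. It was in 8 of 16 windows of called members (50%; 14 of 17 genes matched), and in 9 of 26 windows of the whole list (34.6%), against 2.26% of all windows. Cdc6 (plus strand, chr11:98907901-98908200) holds 1 match and Mcm5 (plus strand, chr8:75109259-75109558) holds 2 that overlap, all in capitals. A match describes the sequence and does not show that a factor binds there.
Cdc6: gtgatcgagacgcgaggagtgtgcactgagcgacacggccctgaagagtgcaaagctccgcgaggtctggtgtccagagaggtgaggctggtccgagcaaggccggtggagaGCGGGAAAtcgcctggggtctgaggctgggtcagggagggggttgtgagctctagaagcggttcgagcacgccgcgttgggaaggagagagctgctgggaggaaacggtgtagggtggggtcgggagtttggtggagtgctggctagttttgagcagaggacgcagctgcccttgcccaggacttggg
Mcm5: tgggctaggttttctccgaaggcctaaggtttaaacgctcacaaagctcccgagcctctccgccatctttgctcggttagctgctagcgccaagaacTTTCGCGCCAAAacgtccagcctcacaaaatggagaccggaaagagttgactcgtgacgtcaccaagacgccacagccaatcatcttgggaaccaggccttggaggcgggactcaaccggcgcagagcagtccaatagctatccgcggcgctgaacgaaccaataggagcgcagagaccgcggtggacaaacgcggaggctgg

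Glial genes were lower in the secondary neurospheres, in both the oligodendrocyte and the astrocyte lists. Of 30 genes of the oligodendrocyte lineage, 25 were tested, 10 were called lower and 0 higher, with a median difference of -1.85. Of 30 astrocyte genes, 29 were tested, 8 were called lower (27.6%) and 0 higher, with a median of -1.54. Over all genes 1.49% were called lower. Called genes included several of differentiating and myelin-forming cells, and the genes not called included Olig2 and Pdgfra of the progenitor stage and Mag of myelin.

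Enpp6, a phosphodiesterase of newly formed oligodendrocytes, had signals of 20 and 13.4 in the secondary neurospheres, against 907 in the GE neurospheres (-5.41 ± 0.68, adjusted p = 0.0087). Myelin basic protein (Mbp) had 964 and 299 in the secondary neurospheres, against 6578 in the GE neurospheres (-3.60 ± 0.68, adjusted p = 0.0268). The iPS-derived array was well above the ES-derived one for Mbp, and both lay below GE. Bcas1, a marker of early myelinating cells, had 229 and 114 in the secondary neurospheres, against 3707 in the GE neurospheres (-4.47 ± 0.67). Cldn11, the tight junction protein of myelin, had 30.4 and 34.9 in the secondary neurospheres, against 765 in the GE neurospheres (-4.36 ± 0.88), and Myrf, a transcription factor needed for myelination, had 28.4 and 24.4 in the secondary neurospheres, against 345 in the GE neurospheres (-3.48 ± 0.69). The receptor Gpr17, which marks cells between the progenitor and the mature stage, had 204 and 83.8 in the secondary neurospheres, against 1434 in the GE neurospheres (-3.40 ± 0.53). The myelin enzyme Cnp (-2.64 ± 0.52) and the deacetylase Sirt2 (-2.63 ± 0.54) were also lower. Olig2, the transcription factor that specifies the lineage, had 1689 and 922 in the secondary neurospheres, against 1032 in the GE neurospheres and was not called (0.27 ± 0.43). Pdgfra, the receptor of oligodendrocyte progenitors, had 769 and 597 in the secondary neurospheres and 454 in the GE neurospheres (0.57 ± 0.90). Sox10, which acts throughout the lineage, had 125 and 62.9 in the secondary neurospheres and 422 in the GE neurospheres and was not called (adjusted p = 0.0916, and 0.0469 with the replicate block). The myelin-associated glycoprotein Mag had 21.2 and 13.8 in the secondary neurospheres, against 69.9 in the GE neurospheres and was not called (-1.75 ± 0.53, adjusted p = 0.114). For Olig2 the GE array lay between the secondary arrays, and for Pdgfra below both.

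Gfap, the intermediate filament of astrocytes, had signals of 0.2 and 3 in the secondary neurospheres, against 514 in the GE neurospheres (-6.33 ± 0.45, adjusted p = 0.000812). It was below the level of 20 on both secondary arrays. The neurotensin receptor Ntsr2 had 17.6 and 107 in the secondary neurospheres, against 1126 in the GE neurospheres (-4.49 ± 0.77), and the water channel Aqp4 had 74.5 and 361 in the secondary neurospheres, against 2742 in the GE neurospheres (-4.01 ± 0.89). For both, the ES-derived array lay between the iPS-derived array and GE. Clusterin (Clu), a secreted chaperone, had 189.8 and 143 in the secondary neurospheres, against 1852 in the GE neurospheres (-3.45 ± 0.63). The calcium-binding protein S100b had 62 and 35.3 in the secondary neurospheres, against 295 in the GE neurospheres (-2.53 ± 0.49), and the gap junction gene Gjb6 had 3.9 and 9.3 in the secondary neurospheres, against 74.9 in the GE neurospheres (-2.82 ± 0.57). Mmd2 differed by -2.94 ± 0.42 and stayed at 468 and 705 in the secondary neurospheres, against 4432 in the GE neurospheres. The glutamate transporter Slc1a2, at 362 and 879 in the secondary neurospheres, against 1455 in the GE neurospheres, was not called. The folate enzyme Aldh1l1, at 232 and 288 in the secondary neurospheres, against 598 in the GE neurospheres, was not called either. Outside the lists, angiotensinogen (Agt), which astrocytes secrete in the brain, had 2.5 and 8.9 in the secondary neurospheres, against 1908 in the GE neurospheres (-7.55 ± 0.47, adjusted p = 0.000657). Ntrk2, the receptor for brain-derived neurotrophic factor, had 106 and 235 in the secondary neurospheres, against 3225 in the GE neurospheres (-4.31 ± 0.54). The matrix protein tenascin R (Tnr) had 137 and 23.9 in the secondary neurospheres, against 1417 in the GE neurospheres (-4.47 ± 0.92), and the lipase Mgll had 25.4 and 25.3 in the secondary neurospheres, against 840.4 in the GE neurospheres (-4.80 ± 0.60).

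Leaving out the iPS-derived array left 5 oligodendrocyte and 4 astrocyte calls, and leaving out the ES-derived array left 2 and 4. Leaving out replicate 3 or 4 of the embryonic fibroblast-derived neurospheres left 4 oligodendrocyte and 3 astrocyte calls, and the fit of 5 arrays 0. The mean log2 level of the astrocyte list was 8.35 and 8.99 in the secondary neurospheres, against 10.4 in the GE neurospheres, and no other array exceeded 6.94. In these whole cultures, fewer cells of a type and less RNA per cell cannot be told apart.

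**Figure D3:**
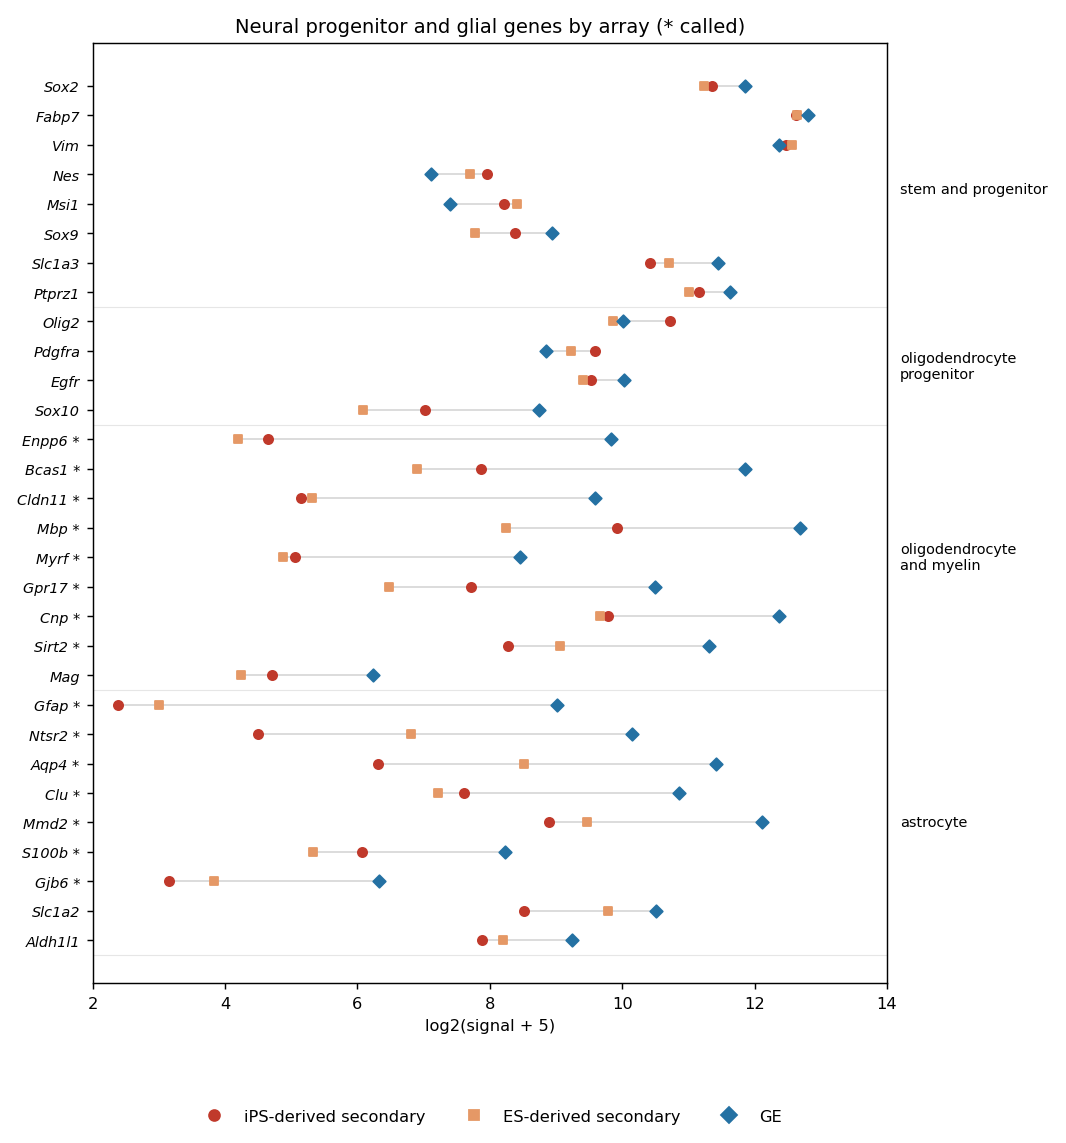
Log2(signal + 5) of neural progenitor and glial genes on the iPS-derived (circle) and ES-derived (square) secondary arrays and the GE array (diamond), with called genes starred. The 8 progenitor markers carry no star, and the GE diamond lies to the right of both secondary arrays for all the starred genes.

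Patterning genes were called in both directions, and the midbrain, hindbrain and Hox lists had calls only upwards in the secondary neurospheres. Of 42 genes of midbrain, hindbrain and spinal patterning, 31 were tested, 9 were called higher (29.0%, against 2.4% over all genes) and 0 lower. Its median difference of 0.54 depended on the filter, at 0.158 with no filter (38 tested) and 1.33 with the filter on the 3 arrays compared (20 tested). Of 39 Hox genes, 27 were tested, 5 were called higher (18.5%) and 0 lower (median 1.41). Of 34 forebrain patterning genes, 23 were tested, 1 was called higher (4.35%) and 2 lower (8.7%, against 1.49% over all genes). Its median was 0.473, with 14 genes above GE on both secondary arrays and 5 below it on both, and turned to -0.0494 over the 12 genes that reached 100.

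Shh, the ligand Sonic hedgehog that the floor plate secretes, had signals of 2729 and 4211 in the secondary neurospheres, against 13.6 in the GE neurospheres (7.51 ± 0.70, adjusted p = 0.00305). The GE array was under 20, and the ES-derived array was the highest of the 12. Its receptor Ptch1, which is itself induced by the pathway, had 1846 and 2475 in the secondary neurospheres, against 651 in the GE neurospheres (1.71 ± 0.34, adjusted p = 0.0332). These were the 2 calls among 15 tested hedgehog genes (13.3%, against 3.89% over all genes), whose median difference was 0.263. Leaving out either secondary array, or any array of the adult or embryonic fibroblast-derived neurospheres, left 1 call. Foxa1 and Foxa2, winged-helix factors of the floor plate and ventral midbrain (and of endoderm), were under 20 on the GE array. Foxa1 had 425 and 685 in the secondary neurospheres, against 0.7 in the GE neurospheres (6.58 ± 0.49, adjusted p = 0.001), and Foxa2 had 534 and 656 in the secondary neurospheres, against 6.8 in the GE neurospheres (5.66 ± 0.83, adjusted p = 0.0137). The other tested endoderm markers, Sox17 and Afp, were under 20 on all 3 arrays. Nkx6-1, a homeobox factor of ventral progenitors in the hindbrain and spinal cord, had 235 and 238 in the secondary neurospheres, against 0.5 in the GE neurospheres (5.46 ± 0.54, adjusted p = 0.00361).

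En1 and En2, the engrailed factors of the midbrain and anterior hindbrain, were both called. En2 had 261 and 466 in the secondary neurospheres, against 12.6 in the GE neurospheres (4.33 ± 0.72, adjusted p = 0.0182), and En1 had 112 and 124 in the secondary neurospheres, against 4.4 in the GE neurospheres (3.71 ± 0.61). Of the Iroquois factors, Irx3 had 182 and 138 in the secondary neurospheres, against 11.3 in the GE neurospheres (3.33 ± 0.67). Irx5 had 205 and 114 in the secondary neurospheres, against 16.6 in the GE neurospheres (2.87 ± 0.61). Lmx1b, a factor of midbrain dopaminergic and hindbrain serotonergic neurons, differed by 2.79 ± 0.62 but reached only 56.8 and 22.8 in the secondary neurospheres, against 1 in the GE neurospheres. With the iPS-derived array left out 4 genes of this list were still called, with the ES-derived array left out 3, and without replicate 3 or 4 of the embryonic fibroblast-derived neurospheres 5.

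The Hox calls were all in the paralog groups 1 to 5, which are used in the hindbrain. Of 15 genes of these groups 12 were tested and 5 were called (41.7%, against 3.89% over all genes), with a median difference of 3.59. Of 24 genes of groups 6 to 13, 15 were tested and 0 called, against the same 3.89% (median 1.01). The difference between these sets was not tested. Hoxb3 had 452 and 657 in the secondary neurospheres, against 5.7 in the GE neurospheres (5.68 ± 0.52, adjusted p = 0.00287), and Hoxb2 had 208 and 249 in the secondary neurospheres, against 7.4 in the GE neurospheres (4.23 ± 0.67). Hoxa2 had 71.3 and 79.8 in the secondary neurospheres, against 1.7 in the GE neurospheres (3.59 ± 0.58). Hoxa3 had 93.2 and 81.5 in the secondary neurospheres, against 2.6 in the GE neurospheres (3.60 ± 0.80). Hoxb5 had 43.5 and 186 in the secondary neurospheres, against 0.4 in the GE neurospheres (4.16 ± 0.87), with the ES-derived array well above the iPS-derived one. Hoxb4, at 67.4 and 129 in the secondary neurospheres, against 12.5 in the GE neurospheres, was not called (adjusted p = 0.119). Left without its ES-derived array, the comparison called 1 Hox gene, and left without the iPS-derived array, or without replicate 3 or 4 of the embryonic fibroblast-derived neurospheres, 3. Of 17 tested genes of retinoic acid signalling, which induces the anterior Hox genes in embryos, 0 were called, against 3.89% over all genes (median 0.374). The count was 1 without the ES-derived or either adult fibroblast-derived array, and 2 with the replicate block.

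Emx2 and Six3 were the forebrain patterning genes called lower in the secondary neurospheres, while most of that list lay above GE, and Nr2e1, Lhx2 and Pax6 were called lower in the neural stem cell list. Emx2, a homeobox factor of the dorsal forebrain, had 4 and 13.7 in the secondary neurospheres, against 148 in the GE neurospheres (-3.56 ± 0.54, adjusted p = 0.0144). Six3, needed for the most anterior forebrain, had 9.7 and 20.8 in the secondary neurospheres, against 208 in the GE neurospheres (-3.45 ± 0.56). Nr2e1 (Tlx), a nuclear receptor of forebrain stem cells, had 4.1 and 3 in the secondary neurospheres, against 105 in the GE neurospheres (-3.69 ± 0.43, adjusted p = 0.0072), and the LIM factor Lhx2 had 29.1 and 34.9 in the secondary neurospheres, against 282 in the GE neurospheres (-2.96 ± 0.57). Emx2 and Nr2e1 were under 20 on both secondary arrays. Pax6 had 56.8 and 43.2 in the secondary neurospheres, against 248 in the GE neurospheres (-2.21 ± 0.50, adjusted p = 0.0489), a call that was lost whichever of 10 arrays was left out. Otx2, a factor of the forebrain and midbrain, had 1 and 18.7 in the secondary neurospheres, against 127 in the GE neurospheres and was not called, with an SE of 2.07. Dlx1, the 1 forebrain patterning gene called higher, is described above and kept its call in 4 of 10 fits with an array left out. Without the iPS-derived array 1 gene of the forebrain list was called.

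**Figure D4:**
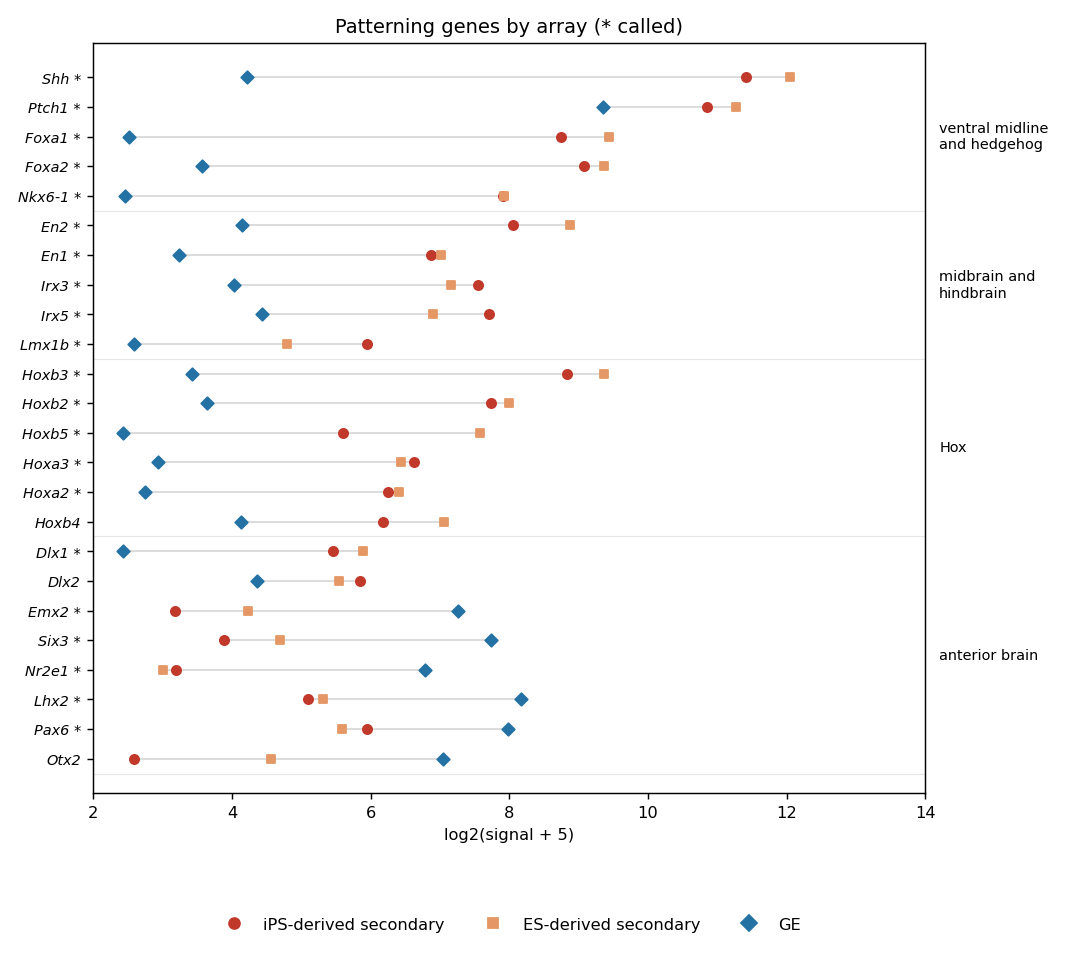
Log2(signal + 5) of patterning genes on the iPS-derived (circle) and ES-derived (square) secondary arrays and the GE array (diamond), with called genes starred. Both secondary arrays lie to the right of GE for the midline, midbrain, hindbrain and Hox genes shown and for Dlx1 and Dlx2, and to its left for Emx2, Six3, Nr2e1, Lhx2, Pax6 and Otx2.

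Several genes that respond to low oxygen were lower in the secondary neurospheres. Of 29 genes of hypoxia and glycolysis 26 were tested, 5 were called lower (19.2%, against 1.49% over all genes) and 0 higher. The median difference was -1.6, and 24 genes lay below GE on both secondary arrays. The 2 exceptions, named after their values were seen, were Eno2 (-0.23) and Egln3 (0.08). Adrenomedullin (Adm), a vasodilator peptide induced by hypoxia, had signals of 11.9 and 6.3 in the secondary neurospheres, against 229.7 in the GE neurospheres (-4.09 ± 0.70, adjusted p = 0.0203). Ndrg1, a stress-response gene, had 13.3 and 21.4 in the secondary neurospheres, against 294 in the GE neurospheres (-3.77 ± 0.67). Ankrd37 had 11.1 and 9 in the secondary neurospheres, against 98.1 in the GE neurospheres (-2.78 ± 0.56), and Higd1a, a mitochondrial protein, had 724 and 868 in the secondary neurospheres, against 2389 in the GE neurospheres (-1.58 ± 0.33). The carbonic anhydrase Car9 had 0.7 and 3.2 in the secondary neurospheres, against 34.1 in the GE neurospheres (-2.52 ± 0.56, adjusted p = 0.047), a call lost whichever array was left out. The mean log2 level of the list was 7.5 and 7.71 in the secondary neurospheres, against 9.44 in the GE neurospheres, within the range of the other 9 arrays (7.36 to 9.67). The number of calls was 0 without either secondary array, 1 without replicate 3 or 4 of the embryonic fibroblast-derived neurospheres, 3 without either adult one and 11 without either primary neurosphere array. With the replicate block it was 8.

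The core of the hypoxia response element was searched as ACGTG on both strands in the promoter windows. It was in 3 of 4 windows of called members (75.0%) and in 21 of 40 windows of the whole list (52.5%), against 19.6% of all windows. Ankrd37, a direct target of the hypoxia-inducible factor, is shown as an example (minus strand, chr8:45999801-46000100), with its 2 matches in capitals.
Ankrd37: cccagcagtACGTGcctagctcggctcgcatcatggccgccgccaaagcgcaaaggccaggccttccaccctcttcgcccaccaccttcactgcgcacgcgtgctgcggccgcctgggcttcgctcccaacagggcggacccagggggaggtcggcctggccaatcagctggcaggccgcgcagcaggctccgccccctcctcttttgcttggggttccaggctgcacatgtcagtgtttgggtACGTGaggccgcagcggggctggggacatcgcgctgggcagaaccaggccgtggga

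Neuronal transcripts were more abundant in the secondary neurospheres for a few genes. Of 34 neuronal genes 32 were tested, 3 were called higher (5 with the replicate block) and 0 lower. The calls were 9.38% of the tested genes, against 3.89% over all genes. The median difference was 1.34, with 27 genes above GE on both secondary arrays and 3 below it on both. Stathmin 2 (Stmn2), a microtubule regulator of growing axons, had signals of 770.5 and 239 in the secondary neurospheres, against 8.4 in the GE neurospheres (5.02 ± 0.68, adjusted p = 0.0113). Snap25, a protein of synaptic vesicle release, had 438 and 128 in the secondary neurospheres, against 14.7 in the GE neurospheres (3.62 ± 0.79). The vesicular transporter of GABA and glycine, Slc32a1, had 93.5 and 49 in the secondary neurospheres, against 1 in the GE neurospheres (3.60 ± 0.52). The iPS-derived array was higher than the ES-derived one in each case. In the iPS and ES cells themselves, Stmn2 had 1506 and 2276, Snap25 had 2.5 and 5.4, and Slc32a1 had 0.9 and 0.3. High Stmn2 was thus not confined to neural cultures in this series. Tubulin β3 (Tubb3), at 429.8 and 152 in the secondary neurospheres, against 32.4 in the GE neurospheres, was not called (adjusted p = 0.0887), nor was doublecortin (Dcx), at 449 and 216 in the secondary neurospheres and 202 in the GE neurospheres. Penk, which encodes the enkephalin precursor and is outside the list, had 259.9 and 316 in the secondary neurospheres, against 1.6 in the GE neurospheres (5.47 ± 0.45, adjusted p = 0.00188). Its signals were higher, at 783 to 1597, in the fibroblast-derived neurospheres. Of 23 tested proneural factors 1 was called (4.35%, against 3.89% over all genes), and 0 without either secondary array or without replicate 3 or 4 of the embryonic fibroblast-derived neurospheres. The 1 call was Myt1l, a neuronal zinc finger factor, at 46.9 and 42 in the secondary neurospheres, against 5.8 in the GE neurospheres (2.19 ± 0.45). Cd24a, a surface protein of immature neurons, was higher, with 3320.3 and 3810.2 in the secondary neurospheres, against 807 in the GE neurospheres (2.13 ± 0.39). Hmga2, a chromatin protein of young, fast-dividing neural stem cells, had 563 and 349.8 in the secondary neurospheres, against 13 in the GE neurospheres (4.64 ± 0.68, adjusted p = 0.0135). Among 33 tested channel genes 3 were called (9.09%, against 3.89% over all genes), all of them potassium channels, and 0 without the ES-derived array. Kcnma1 was higher (3.01 ± 0.48), and Kcna2 (-2.76 ± 0.50) and Kcnk2 (-2.64 ± 0.44) were lower. Of 23 tested glutamate and GABA receptor genes 0 were called, and 2 with the replicate block, which also called 2 channel genes higher.

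Each of the signalling lists below had 1 to 3 calls, or 4.17% (Notch) to 11.1% (EGF and FGF) of its tested genes, against 3.89% over all genes, and list medians between 0.188 and 0.656. The Notch ligand Jag1 was higher, with 557 and 716 in the secondary neurospheres, against 72.6 in the GE neurospheres (3.04 ± 0.29, adjusted p = 0.00307), as the 1 call of 24 Notch genes (2 with the replicate block). The Notch target Hes5, at 782 and 180.5 in the secondary neurospheres, against 1859 in the GE neurospheres, was not called. The phosphatase Dusp6 and the inhibitor Spry1, negative feedback genes of the ERK pathway, were higher. Dusp6 had 1848 and 1837 in the secondary neurospheres, against 204 in the GE neurospheres (3.14 ± 0.52, adjusted p = 0.0172), and Spry1 had 604 and 621 in the secondary neurospheres, against 105 in the GE neurospheres (2.48 ± 0.43). The EGF receptor ligand Tgfa was lower, with 65.8 and 59.9 in the secondary neurospheres, against 244 in the GE neurospheres (-1.87 ± 0.37). These were the calls among 27 tested genes of EGF and FGF signalling, and with either secondary array left out 0 genes of this list were called. Of 32 tested Wnt genes 2 were higher, the ligand Wnt4 (2.68 ± 0.52) and the R-spondin receptor Lgr5 (2.46 ± 0.54). This became 0 without the ES-derived array or without replicate 3 or 4 of the embryonic fibroblast-derived neurospheres, 1 without the iPS-derived array, and 4 with the replicate block. Among 29 genes of BMP and TGF-β signalling, the receptor Tgfbr2 had 268 and 723 in the secondary neurospheres, against 15.7 in the GE neurospheres (4.43 ± 0.74) and the decoy receptor Bambi had 41.7 and 75.7 in the secondary neurospheres, against 8 in the GE neurospheres (2.24 ± 0.46). The BMP receptor Bmpr1b was lower, with 63.2 and 114 in the secondary neurospheres, against 487 in the GE neurospheres (-2.45 ± 0.42), as the 1 lower call of its list (2 with the replicate block). Without the ES-derived array this list had 1 call, and without the iPS-derived array the Notch list had 3. The heparan sulfatase Sulf1, which edits the sugar chains that bind Wnt, FGF and hedgehog ligands, had 2141 and 3086 in the secondary neurospheres, against 5.2 in the GE neurospheres (7.98 ± 0.53, adjusted p = 0.00066). Slit2, a midline axon repellent, had 615 and 1373 in the secondary neurospheres, against 16 in the GE neurospheres (5.46 ± 0.66, adjusted p = 0.0087), and the peptide ligand Apela had 262 and 549 in the secondary neurospheres, against 0.5 in the GE neurospheres (6.13 ± 1.09).

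The mean log2 level of the fibroblast and matrix list was 6.58 and 8.28 in the secondary neurospheres, against 5.58 in the GE neurospheres. Of 43 such genes 40 were tested, 2 were called higher (5%, against 2.4% over all genes) and 0 lower. The median difference was 1.73, with 26 genes above GE on both secondary arrays and 9 below it on both. The summed signal of 7 fibroblast markers was 1116.2 and 7896 in the secondary neurospheres, against 328 in the GE neurospheres and between 74.2 and 29727 on the other arrays. Of these 7, Thy1 alone had a negative difference (-1.42 ± 1.05, not called). It had 35.7 and 213.8 in the secondary neurospheres, against 246.8 in the GE neurospheres, and so made up most of the GE sum. Col3a1, a fibrillar collagen, had signals of 464 and 4165 in the secondary neurospheres, against 0.4 in the GE neurospheres (8.02 ± 1.73, adjusted p = 0.0428), and Ccn2, a matrix-associated growth factor target, had 608 and 621 in the secondary neurospheres, against 4.4 in the GE neurospheres (6.04 ± 0.93). Decorin (Dcn), at 366 and 1417 in the secondary neurospheres, against 9.6 in the GE neurospheres, was not called (adjusted p = 0.0664). Col1a2, at 90.8 and 1454 in the secondary neurospheres, against 14.8 in the GE neurospheres, and Col1a1, at 2.4 and 147 in the secondary neurospheres and 0.5 in the GE neurospheres, were not called either, with the ES-derived array far above the iPS-derived one. The part of such cells in the other differences was not tested. Without the ES-derived array 0 genes of this list were called, and without the iPS-derived one 6. Leaving out 1 of the arrays of embryonic or adult fibroblast-derived neurospheres left 1 call, while leaving out a pluripotent or a primary neurosphere array gave 5 and 3. Adhesion genes called higher were Itga8 (4.49 ± 0.87), Epha7 (3.32 ± 0.60), Lama1 (2.92 ± 0.64) and Itga3 (1.71 ± 0.35), of 44 tested (9.09%, against 2.4% over all genes). None of the adhesion list was called without the ES-derived array or without replicate 3 or 4 of the embryonic fibroblast-derived neurospheres, 2 were without either adult one, and with the replicate block 6 were called higher and 1 lower. The tight junction gene Cldn1, held in the choroid plexus and ependyma list, had 311 and 146 in the secondary neurospheres, against 6.2 in the GE neurospheres (4.28 ± 0.53, adjusted p = 0.0087), and the contractile tropomyosin Tpm1 had 164 and 277 in the secondary neurospheres, against 26 in the GE neurospheres (2.82 ± 0.54), although another Tpm1 probe set differed by -0.00486. The neural crest and Schwann cell cadherin Cdh19 was lower, with 9.6 and 4.2 in the secondary neurospheres, against 79.8 in the GE neurospheres (-2.87 ± 0.48). The contractile list had 1 call (6.25% of its tested genes) and the neural crest list 1 (4.76%), against 3.89% over all genes. The replicate block gave 2 calls in each. The contractile call was lost without either secondary array or without replicate 3 or 4 of the embryonic fibroblast-derived neurospheres, and the neural crest call without the ES-derived array.

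Most markers of macrophages and of blood vessels were low on all 3 arrays. Of 6 tested markers of macrophages and microglia, Csf1r, Ptprc, Cd68, Tyrobp and Laptm5 were under 20 throughout on the probe sets used. Other probe sets reached at most 18.8 in the secondary neurospheres and 25.4 in the GE neurospheres for Csf1r, and at most 22.4 in the secondary neurospheres and 24 in the GE neurospheres for Laptm5. The sixth, the lysozyme gene Lyz2, had 6.5 and 41.9 in the secondary neurospheres, against 7 in the GE neurospheres, and the summed signal was 42.4 and 96.1 in the secondary neurospheres and 44.2 in the GE neurospheres. Of 5 endothelial markers, Pecam1, Cdh5, Tek and Cldn5 were under 20 throughout, and the receptor Kdr had 17.8 and 32.7 in the secondary neurospheres, against 36.8 in the GE neurospheres. Pluripotency markers summed to 43.3 and 660.8 in the secondary neurospheres and 47.9 in the GE neurospheres, against up to 18783 elsewhere in the series. Pou5f1, the factor Oct4 that keeps cells pluripotent, had 5 and 53.4 in the secondary neurospheres and 0.7 in the GE neurospheres, so that it passed 20 on the ES-derived array alone. Of 28 tested pluripotency genes 0 were called, against 3.89% over all genes. Their median difference was 1.13, and 20 lay above GE on both secondary arrays and 0 below it on both. The SE was wide, at 2.03 for Pou5f1 and 2.19 for the pluripotency factor Nanog. The primary neurosphere pair, which entered the fit, had 9.6 (iPS) and 1174 (ES) for Pou5f1. The absence of calls thus does not show equal levels. No gene was called among 29 tested interferon, MHC and complement genes, 22 of cholesterol synthesis and 21 of keratins and epithelium. The same held for 15 of endothelium and pericytes and 12 of macrophages and microglia. Over all genes 3.89% were called, so 0 calls in lists of this size do not show equal levels. With the replicate block 1 was called in the interferon list and 1 in the endothelial list.

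Imprinted genes, expressed from the copy of one parent, were called higher in 4 of 28 tested (14.3%, against 2.4% over all genes). None was called lower (median 1.12). Meg3 and Rian are noncoding RNAs expressed from the maternal copy of one cluster. Meg3 had 386 and 905 in the secondary neurospheres, against 46.3 in the GE neurospheres (3.54 ± 0.50), and Rian had 304 and 894 in the secondary neurospheres, against 24.2 in the GE neurospheres (4.17 ± 0.70). For both genes the ES-derived array was the higher of the pair. The adaptor protein Grb10, a brake on growth factor receptors, had 979 and 1026 in the secondary neurospheres, against 108 in the GE neurospheres (3.16 ± 0.56). Magel2, a gene of the Prader-Willi region, had 84.8 and 84.1 in the secondary neurospheres, against 8 in the GE neurospheres (2.78 ± 0.50). Without the ES-derived array 1 gene of the list was called, and without replicate 3 or 4 of the embryonic fibroblast-derived neurospheres 2.

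Xist, the noncoding RNA that coats the inactive X chromosome of female cells, had signals of 8.9 and 7.9 in the secondary neurospheres, against 2708 in the GE neurospheres. It was under 20 on both secondary arrays, and its difference of -7.66 ± 0.26 had the smallest adjusted p of the comparison (7.36e-06). The Y-linked gene Eif2s3y had 2.9 and 332 in the secondary neurospheres, against 0.6 in the GE neurospheres, so that it passed 20 on the ES-derived array alone. Eif2s3y and Uty, also Y-linked, were called higher with the replicate block, and 0 Y-linked genes without it. The labels give no sex for the lines or for the embryos.

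**Figure D5:**
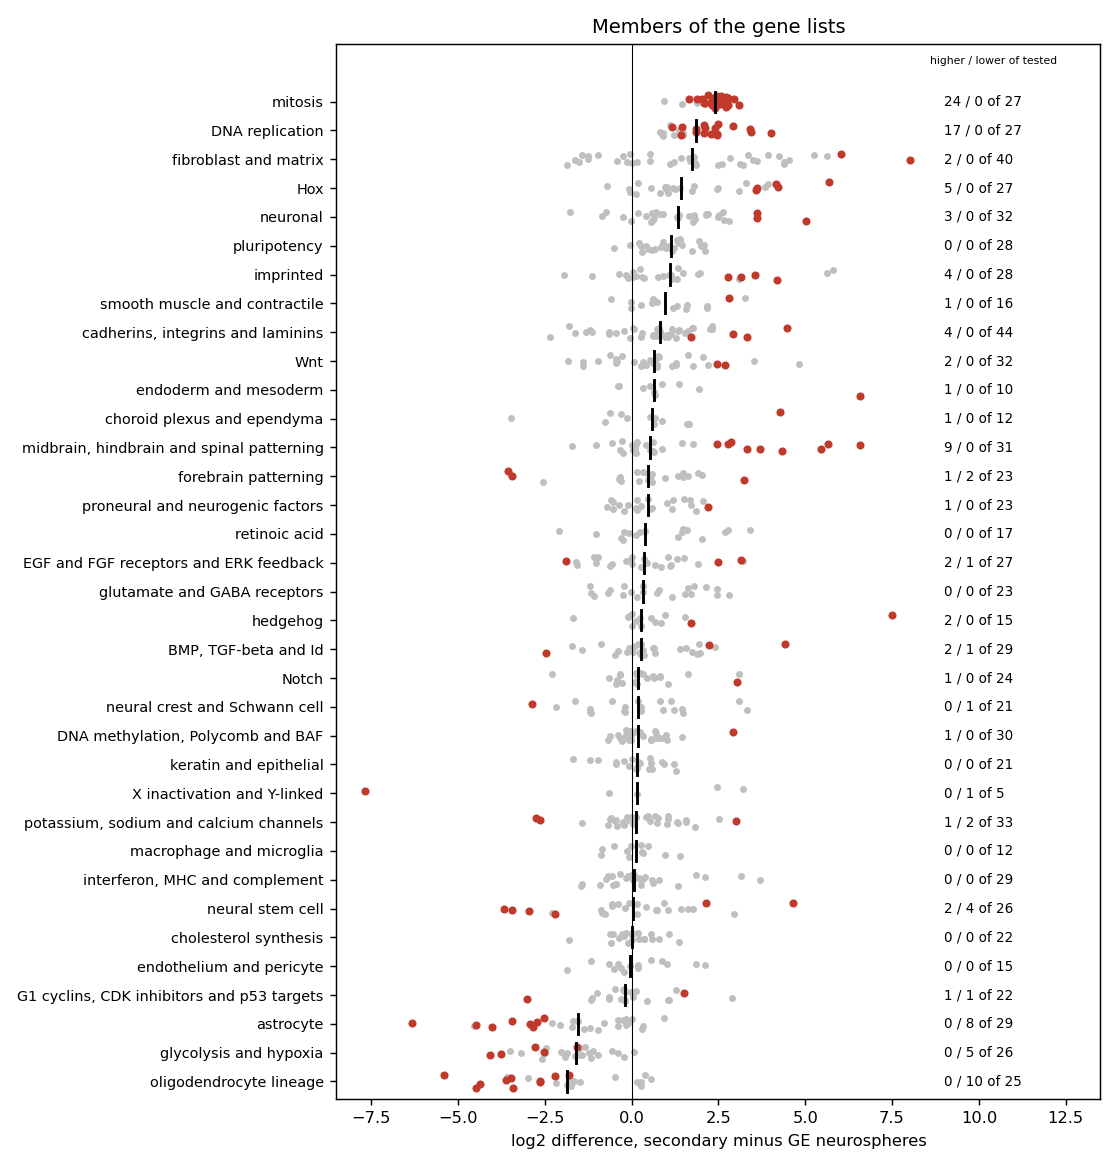
Log2 difference, secondary minus GE neurospheres, of each tested member of the 35 gene lists, ordered by their medians (black bars), with called members in red and the counts called higher and lower at the right. Mitosis and DNA replication lie at the top with medians of 2.41 and 1.85, and the astrocyte, hypoxia and oligodendrocyte lists at the bottom with medians of -1.54, -1.6 and -1.85.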

How the data were processed

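Total RNA was extracted with Trizol and hybridised as biotin-labelled cRNA, per the labels' protocols. The deposited values are linear signal intensity, for which the submitters' processing notes name MAS5 and Affymetrix Expression Console 1.1. The equal trimmed mean on every array hides changes in total RNA, and the number of arrays limits the precision. From these, log2(signal + 5) was computed. Of 45101 probe sets, 64 were controls, 34945 had 1 symbol in the platform annotation, 932 several and 9160 none. A gene was represented by the probe set naming only that gene, with a signal of 20 on at least 1 array, that had the highest mean signal. Of the 57 called named genes with other passing probe sets, 55 agreed in sign across their probe sets (not Mcm3 and Tpm1).

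Arrays were grouped by the labels into 7 groups and fitted together with limma 3.58.1 in R 4.3.3 (lmFit, eBayes with an intensity trend; 5 residual and 3.63 prior degrees of freedom), 2-sided, with Benjamini-Hochberg adjustment over all genes, after tests on simulated data. The lone GE array was assumed to vary like the groups of 2. The 35 lists held 966 genes, 829 of them tested; they are described by counts and medians, without a test. Named genes were the 12 highest and 12 lowest called genes that reached 100 on 1 of the 3 arrays, up to 8 called members of each list in each direction, and fixed markers; the text names part of them. Groups, lists and rules were chosen with earlier results of these data known.

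Replicate numbers 1 and 2 mark the iPS and the ES line in 3 groups, so they pair those arrays. Deviations from the group means correlated at 0.252 (pluripotent and primary), 0.0578 (pluripotent and secondary) and 0.425 (primary and secondary). Alternatives were other scalings, pseudocounts, filters, probe set rules, adjustments, fits of fewer arrays, a replicate block and leaving out each array of a pair.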

Additional observations from a re-analysis of the deposited data

Results flagged for a closer look

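In 3 genes of the lists the iPS-derived and the ES-derived secondary array lay on opposite sides of the GE array, each by at least 1 on the log2 scale. With 1 array per line this difference was not tested. The retinaldehyde dehydrogenase Aldh1a1 had signals of 5.5 and 117 in the secondary neurospheres, against 37.2 in the GE neurospheres, an ES-derived minus iPS-derived difference of 3.54. The pluripotency-associated gene Dppa5a had 10.6 and 487 in the secondary neurospheres, against 28.2 in the GE neurospheres, a difference of 4.98. It was 6115 and 6192 in the iPS and ES cells, and 24.8 and 4502 in the primary neurospheres from them. The imprinted gene Nnat had 497 and 49.2 in the secondary neurospheres, against 206 in the GE neurospheres, a difference of -3.21.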

How the results depend on the processing

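No named gene that was called changed direction under any alternative. Only the scalings, the filters and the mean of probe sets could have changed one. The other fits keep the sign of a call, since a call needs both secondary arrays on the same side of GE. The 531 calls (327 higher, 204 lower; 121 in the gene lists) stayed within 1.5 times of that under quantile normalization, a common median, other filters, the mean of probe sets, no intensity trend and a minimum difference of 1 on both arrays. The replicate block, with the line as a term, called 771 (466 higher, 305 lower) and kept these 3 counts within 1.5 times. It moved list counts by over 1.5 times where the report gives both, added calls for Sox10 and Eif2s3y and took none from a called named gene. A pseudocount of 1 left 123 lower calls (70.3% of all calls higher) and one of 20 gave 325 (50.3% higher). A common median shifted the median of all genes to -0.151, against 0.0252 as deposited. Every probe set on its own (24568 tested) gave 814 calls, 494 higher and 320 lower. A fit of the 3 arrays alone called 0 genes, 0 higher and 0 lower, and 0 in the lists. A fit of 5 neurosphere arrays called 10, 8 higher and 2 lower, with 6 in the lists. Both have fewer degrees of freedom. Benjamini-Yekutieli adjustment left 19, 14 higher and 5 lower, with 9 in the lists. Leaving out 1 array at a time gave 216 to 598 calls, 138 to 369 higher and 73 to 238 lower, with 55 to 132 in the lists. Without replicate 3 or 4 of the embryonic fibroblast-derived neurospheres or without either secondary array the counts fell by more than 1.5 times, and the cause was not tested beyond the spreads given. Signals under 20 are close to background, so fold changes of genes below it in 1 culture have no firm size.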

Other observations

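The secondary arrays also differed from each other in genes that were not called against GE, chosen here after their values were seen. With 1 array per line, these are values without a test. Periostin (Postn), a matrix protein, had 60.8 on the iPS-derived and 1970.1 on the ES-derived array. The collagen gene Col6a3 had 60.9 on the iPS-derived and 1282 on the ES-derived array. The growth factor Igf2 had 77.4 on the iPS-derived and 2947 on the ES-derived array, against 3.9 on the GE array. The angiotensin receptor Agtr2 had 4.3 on the iPS-derived and 494 on the ES-derived array. In the other direction, the urea cycle enzyme Cps1 had 677 on the iPS-derived and 15.1 on the ES-derived array, against 1 on the GE array. The purine salvage enzyme Hprt had 269 on the iPS-derived and 10.8 on the ES-derived array, against 129.6 on the GE array. In the iPS and ES cells themselves it had 1887 and 12.3, and in the primary neurospheres from them 179 and 11.6. The ES line was thus low at each stage.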
